A study of Homo sapiens with 8 samples.

Results

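The genes described here are 10 genes of the NRF2 antioxidant pathway: NFE2L2, which encodes NRF2, its inhibitor KEAP1, and the NRF2 targets GCLC, GCLM, SLC7A11, TXNRD1, SRXN1, NQO1, AKR1C1 and HMOX1. They were found by the RefSeq accession that the array design gives each probe, which led to 11 probes, and they are 10 of 20249 genes that could be named on the array. Of the 10 genes, 9 had a probe well above background and entered the test, through 10 probes. The RNA came from KYSE850, an established cell line from a human esophageal squamous cell carcinoma (ESCC), and was hybridised to 8 Agilent arrays in a single colour. Control siRNA was given to the cells of 4 arrays and siRNA against KHSRP to those of the other 4, and time and dose are not in the labels of these arrays. KHSRP (KH-type splicing regulatory protein) is an RNA-binding protein, and the arrays were made to look for the pathways affected by its knockdown. Nothing states that replicates were separate cultures, so that p-values measure the spread between these samples, which may be technical, in 1 cell line.

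NRF2 is a transcription factor that KEAP1 binds in the cytoplasm and hands over to degradation while the cell is unstressed. Oxidants and electrophiles modify KEAP1, NRF2 then enters the nucleus, pairs with a small MAF protein and binds antioxidant response elements near genes for glutathione synthesis, thioredoxin recycling, detoxification and iron handling. Some squamous carcinomas of the esophagus carry mutations that keep the pathway active. All values here are mRNA levels, which do not report the amount or location of NRF2 protein.

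The antioxidant response element has a short core, TGACNNNGC, which was searched on both strands of the RefSeq promoter windows of assembly GRCh38.p14, from 250 bases before to 50 after each start site. The core was present in 4687 of 35116 windows over all genes (13.3%). Windows were at hand for 8 of the 10 genes (11 windows), and 4 windows of 3 genes, GCLM, TXNRD1 and KEAP1, held the core. The windows of GCLM and TXNRD1 are shown because both genes belong to the group that varied together on these arrays. In that same group SRXN1 and AKR1C1 had no match in their windows, and SLC7A11 had no window. Bases further from the start sites were not searched, so a window without the core does not mean that the gene lacks an element. A relation between the core and the shared variation was not tested. Capitals mark the core, and GC at the 5′ end of a capital run means a match on the opposite strand. The GCLM window is chr1:93909381-93909680 on the minus strand, with a match that starts at base -34 from the start site. The TXNRD1 windows are chr12:104215529-104215828, with matches at -99 and -8, and chr12:104286782-104287081, with a match at -102, both on the plus strand. A match of these letters is a description of the sequence and not a measured binding site.
GCLM: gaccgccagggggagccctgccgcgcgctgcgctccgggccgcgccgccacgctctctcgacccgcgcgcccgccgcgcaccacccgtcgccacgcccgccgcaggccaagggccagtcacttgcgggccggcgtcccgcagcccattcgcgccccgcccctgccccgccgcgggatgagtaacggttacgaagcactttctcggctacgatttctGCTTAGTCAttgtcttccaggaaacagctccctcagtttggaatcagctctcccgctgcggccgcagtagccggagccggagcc
TXNRD1, first start: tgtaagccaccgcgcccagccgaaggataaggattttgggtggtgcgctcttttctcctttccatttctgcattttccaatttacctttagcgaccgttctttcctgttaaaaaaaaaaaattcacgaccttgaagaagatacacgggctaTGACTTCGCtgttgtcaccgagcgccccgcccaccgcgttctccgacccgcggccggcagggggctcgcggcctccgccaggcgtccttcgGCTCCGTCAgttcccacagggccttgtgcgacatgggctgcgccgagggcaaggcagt
TXNRD1, second start: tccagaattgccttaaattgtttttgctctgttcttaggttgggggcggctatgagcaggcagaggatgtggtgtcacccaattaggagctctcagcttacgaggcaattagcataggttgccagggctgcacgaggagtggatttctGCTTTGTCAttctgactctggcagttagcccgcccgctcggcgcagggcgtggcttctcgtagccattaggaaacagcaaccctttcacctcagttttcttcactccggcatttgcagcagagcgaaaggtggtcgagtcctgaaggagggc

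KHSRP itself was lowered. Levels are given throughout as log2 signal relative to the 75th percentile of the array, so that a probe at that percentile has a level of 0 and 1 unit is a doubling. At probe A_23_P16157 the log2 level of KHSRP was 6.03, 5.81, 6.39 and 6.08 on control replicates 1 to 4 and 2.52, 2.58, 2.88 and 2.85 on KHSRP siRNA replicates 1 to 4. The difference was -3.37 (SE 0.16, adjusted p = 5.9e-05 with limma), or 10.4-fold lower, which left 9.66% of the control level. An exact permutation test (two-sided) gave p = 0.0286, the smallest that 4 arrays against 4 allow. Between 45.1% and 49.4% of 42405 probes were well above background on an array, no spot was saturated, and replicates 1 and 2 of both groups shared a slide, as did replicates 3 and 4.

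KHSRP siRNA changed none of the 9 tested NRF2 pathway genes by the test. Of 18761 tested probes, 1039 passed an adjusted p of 0.05 (5.54%), 360 upward and 679 downward, and 0 of the 10 probes of the pathway genes were among them. Their adjusted p ran from 0.647 to 0.994, and 0 had an unadjusted p under 0.05, against 3677 over all tested probes. Nor did the 4 control and 4 KHSRP siRNA values of any of these probes stand apart, whereas the groups did not overlap for 14.8% of all tested probes. The 9 genes had a median difference of -0.04, against 0.01 over all tested probes. All 9 lay above the 75th percentile on all 8 arrays.

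The master regulator gave no usable signal. NFE2L2 has a single probe, A_33_P3225600, which passed the background criterion on 0 of the 8 arrays and could not be tested. Its log2 level lay between -5.70 and -4.38, on each array below the dimmest probe that passed the background criterion, so its values have no order. What KHSRP siRNA did to NFE2L2 mRNA was therefore not measured.

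KEAP1, the adaptor through which NRF2 is ubiquitinated, was steady. Its log2 level was 3.34, 3.26, 3.53 and 2.90 on control replicates 1 to 4 and 3.25, 3.26, 3.03 and 3.45 with KHSRP siRNA. The KHSRP siRNA values fell inside the control range. The difference was -0.01, with a 95% interval from -0.37 to 0.36 (SE 0.16, adjusted p = 0.989 with limma).

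**Figure D1:**
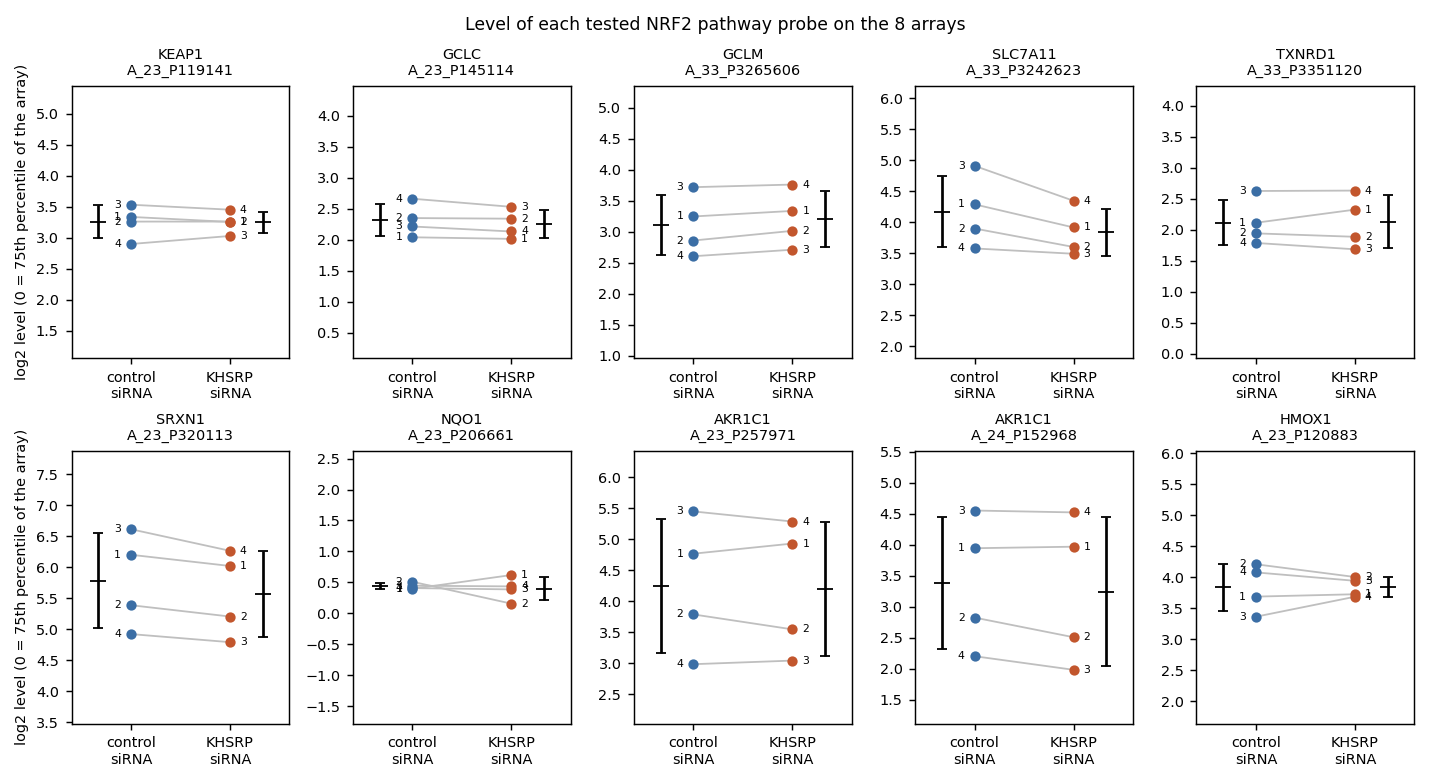
Log2 level of each tested probe of the NRF2 pathway genes (0 is the 75th percentile of the array) on the 4 control siRNA and 4 KHSRP siRNA arrays. Points are arrays, numbers are replicates, bars are mean ± SD (n = 4), and grey lines join arrays that bear the same number in the authors' table of processed values. Every panel spans the same number of log2 units. The 2 groups overlap in every panel, and the AKR1C1 probes spread most, over 5.52-fold among controls at A_23_P257971.

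Glutathione synthesis is served by GCLC and GCLM, the catalytic and modifier subunits of the rate-limiting glutamate-cysteine ligase, and by SLC7A11, the cystine importer that supplies cysteine. GCLC had a log2 level of 2.04, 2.35, 2.21 and 2.66 on control replicates 1 to 4 and 2.01, 2.34, 2.53 and 2.13 with KHSRP siRNA. The difference for GCLC was -0.06 (95% interval -0.45 to 0.33, adjusted p = 0.911). GCLM stood at 3.25, 2.86, 3.72 and 2.605 on the control arrays and at 3.34, 3.01, 2.71 and 3.76 on the KHSRP siRNA arrays, a difference of 0.10 (95% interval -0.57 to 0.77, adjusted p = 0.918). The 2 subunits of the enzyme thus ran in different orders over the arrays: control replicate 4 was the highest control for GCLC and the lowest for GCLM. SLC7A11 measured 4.29, 3.90, 4.91 and 3.57 with control siRNA and 3.91, 3.60, 3.49 and 4.34 with KHSRP siRNA. Its difference of -0.33 was the furthest from 0 among the 10 probes, but the interval from -1.02 to 0.36 spanned 0 (SE 0.30, adjusted p = 0.647).

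Among the 9 tested pathway genes, SLC7A11 was the one whose call depended on how the arrays were paired. The replicate numbers of the authors' table of processed values join control replicate 3 with the KHSRP siRNA array whose scanner file is numbered 4, and control replicate 4 with the one numbered 3. No label states that the arrays were paired. With those numbers as a block, SLC7A11 was 0.37, 0.30, 0.56 and 0.09 log2 units lower in pairs 1 to 4, and the difference of -0.33 had a 95% interval from -0.56 to -0.10 (SE 0.09, adjusted p = 0.0459). That is 1 of 9 genes called, whereas the same block called 5644 of all tested probes (30.1%). SRXN1 was also lower in all 4 pairs, by 0.13 to 0.35, and did not pass (adjusted p = 0.0658). With the block numbered as in the scanner files, the lowest adjusted p of the 10 probes was 0.741.

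**Figure D2:**
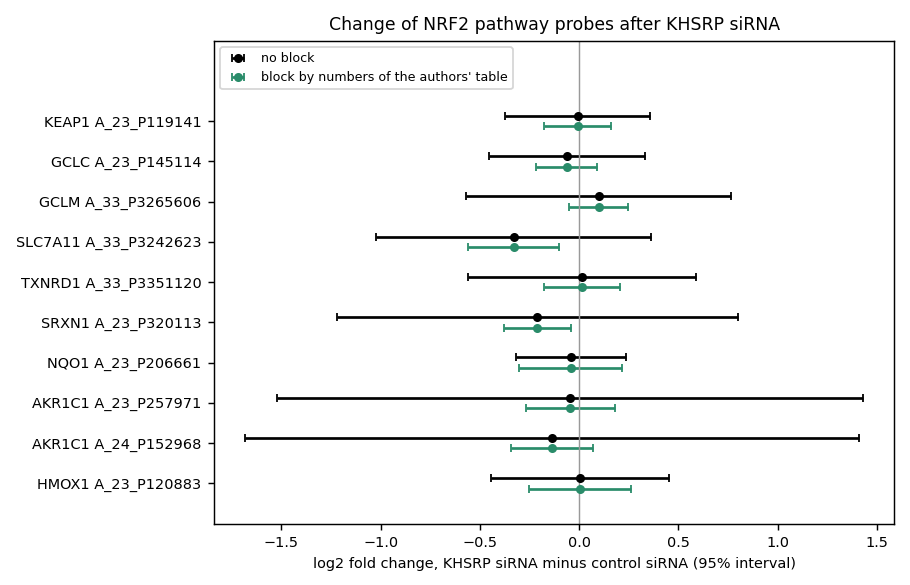
Log2 fold change of each probe, KHSRP siRNA minus control siRNA, with its 95% interval from limma, without a block (black) and with the block by the numbers of the authors' table of processed values (green). The estimates are equal in both fits and the intervals are narrower with the block, where those of SLC7A11 (-0.56 to -0.10) and SRXN1 (-0.38 to -0.04) leave out 0, and adjusted p over all tested probes is under 0.05 for SLC7A11 alone.

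Thiol recycling is served by TXNRD1, the cytosolic thioredoxin reductase, and SRXN1, sulfiredoxin, which repairs over-oxidised peroxiredoxins. TXNRD1 had a log2 level of 2.11, 1.94, 2.62 and 1.79 on control replicates 1 to 4 and 2.32, 1.88, 1.68 and 2.63 on KHSRP siRNA replicates 1 to 4. Its group means differed by 0.02 (95% interval -0.56 to 0.59, adjusted p = 0.987). SRXN1 was measured at 6.20, 5.39, 6.62 and 4.92 with control siRNA and at 6.02, 5.21, 4.79 and 6.27 with KHSRP siRNA. The highest control was thus 3.23-fold above the lowest, and the highest KHSRP siRNA array 2.78-fold above the lowest. The SRXN1 means differed by -0.21 (SE 0.44, 95% interval -1.22 to 0.80, adjusted p = 0.877).

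The detoxifying enzymes behaved unlike one another. NQO1, a quinone reductase often read as an NRF2 reporter, had a log2 level of 0.40, 0.51, 0.45 and 0.41 on the control arrays and 0.62, 0.16, 0.39 and 0.44 on the KHSRP siRNA arrays. The control replicates of NQO1 lay within 1.08-fold of each other, and the difference was -0.04 (95% interval -0.32 to 0.24, adjusted p = 0.918). AKR1C1, an aldo-keto reductase that reduces carbonyls and steroids, had 2 probes that ran alike. At A_23_P257971 its level was 4.76, 3.78, 5.45 and 2.98 with control siRNA and 4.93, 3.54, 3.04 and 5.28 with KHSRP siRNA, a range of 5.52-fold within the controls and 4.74-fold within the KHSRP siRNA arrays. At A_24_P152968 it was 3.94, 2.82, 4.55 and 2.20, then 3.97, 2.51, 1.98 and 4.52, with ranges of 5.10-fold and 5.82-fold. The differences between groups were -0.05 (95% interval -1.52 to 1.43, adjusted p = 0.985) and -0.14 (95% interval -1.68 to 1.41, adjusted p = 0.953). The AKR1C genes are near-identical copies, so which of them these probes read is uncertain. Without a block, the first of these intervals runs from 0.348 to 2.70 times the control level, and with the block by the numbers of the authors' table, described above for SLC7A11, the log2 interval narrowed to -0.27 to 0.18.

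HMOX1, the heme-degrading enzyme heme oxygenase 1, also responds to heme through the repressor BACH1. Its log2 level was 3.69, 4.21, 3.37 and 4.08 on control replicates 1 to 4 and 3.73, 4.01, 3.94 and 3.69 with KHSRP siRNA. All 4 KHSRP siRNA values fell inside the control range, with a difference of 0.00 (95% interval -0.44 to 0.45, adjusted p = 0.994). Within slides the differences of the 10 probes ran from -0.34 to 0.12. The lowest adjusted p of the 10 probes with the slide as a block was 0.648. For the change of their effect between the slides it was 0.999999, in a limma fit that called 0 of all tested probes (77 at an unadjusted p under 0.05, 0 of them among the 10).

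The larger differences were between arrays of the same group. The standard deviation within groups was 1.13 and 1.08 for the AKR1C1 probes, larger than for 98.4% and 98.1% of all tested probes. It was 0.73 for SRXN1 (larger than for 93.6%), 0.49 for SLC7A11 (83.2%), 0.47 for GCLM (81.7%) and 0.40 for TXNRD1 (74.5%). NQO1, at 0.14, varied less than most probes, with 14.7% below it. Of the 10 probes, 7 lay above the median of all tested probes, 0.26.

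**Figure D3:**
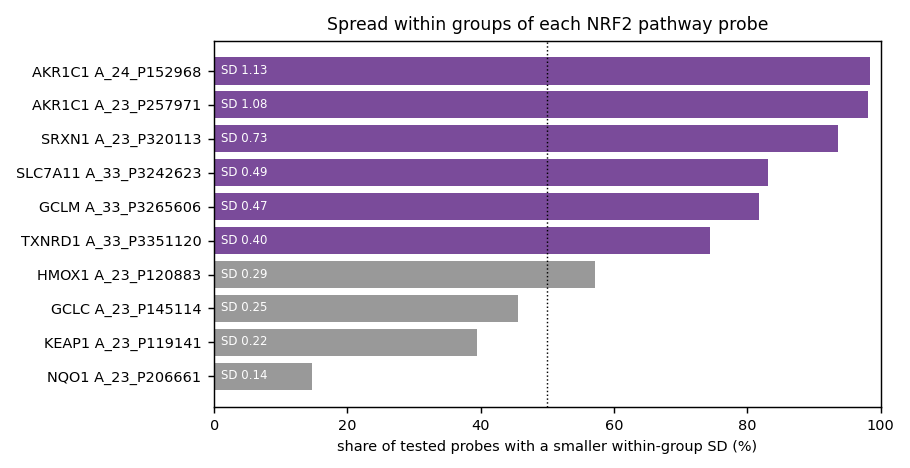
Share of all 18761 tested probes with a smaller standard deviation within groups (x axis, percent) for each probe of the NRF2 pathway genes, with that standard deviation in log2 units printed on the bar (4 arrays per group). Purple bars are the 5 genes that shared one order of arrays, the dotted line is the median probe, and the bars run from 14.7% for NQO1 to 98.4% for AKR1C1.

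GCLM, SLC7A11, TXNRD1, SRXN1 and both AKR1C1 probes shared 1 order of the arrays, which was noticed after the values were seen. Among controls, replicate 3 was the highest, followed by 1, 2 and 4. With KHSRP siRNA, replicate 4 was the highest, followed by 1, 2 and 3. That order was shared by 5 of the 9 tested genes and by 7.13% of all tested probes, and its exact reverse by 6.44% of them. SRXN1, whose order was the reference, is itself counted among the 5. Deviations from the group means of these 5 genes, with both AKR1C1 probes, correlated pairwise at r = 0.937 to 0.997 over the 8 arrays. The genes were picked for their shared order and measured in the same RNA, so that r is a description. KEAP1 followed the same order among controls and correlated with the 5 genes at r = 0.855 to 0.921, in a narrower range. GCLC and HMOX1 ran against the 5 genes (r = -0.90 to -0.72), and NQO1 followed them weakly (r = 0.24 to 0.40). The highest and the lowest control, replicates 3 and 4, were on the same slide and had similar signal at the 75th percentile (98.9 and 98.1 units). Of the KHSRP siRNA arrays, the highest, replicate 4, had 87.7 units, and the lowest, replicate 3, had 95.8. Probes well above background made up 45.1% on KHSRP siRNA replicate 4 and 46.6% on replicate 3, against 48.7% and 48.1% on control replicates 3 and 4. The relation of this order to depth was not tested further.

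Other NRF2 targets were taken from lists, with the brightest tested probe standing for each gene. In a list of 18 detoxification, conjugation and export genes, 16 were tested and 0 were called (3 had an unadjusted p under 0.05), and 9 of the 16 had the order of SRXN1. A second probe of 1 of these genes, ABCC3 A_33_P3298024, was called lower (-0.88, adjusted p = 0.0082), opposite in sign to the probe that stood for the gene (0.58, adjusted p = 0.139). The second probe was not called with the block numbered as in the scanner files (adjusted p = 0.0649). CBR1, a carbonyl reductase named here after its values were seen, had a log2 level of 3.35, 2.10, 3.94 and 1.47 with control siRNA and 3.73, 2.57, 1.85 and 4.46 with KHSRP siRNA. The median within-group standard deviation of that list was 0.82, above the 0.26 of all tested probes. Of 10 genes for glutathione, thioredoxin and iron, 1 was called lower and 2 had the order, GPX2 and PRDX1. The median difference was 0.17 and 0.10 in these lists. With the block by the numbers of the authors' table, 5 detoxification genes were called higher and 1 lower, and 2 genes of the other list higher and 1 lower, beside the 30.1% of all tested probes that this block called. GPX2, a glutathione peroxidase with an antioxidant response element, was among those higher (difference 0.55, adjusted p = 0.00598 with that block and 0.735 without it). With the block numbered as in the scanner files, the adjusted p of GPX2 was 0.800.

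Further lists covered the control of NRF2, other antioxidant enzymes and ATF4 targets. Of 15 genes that control NRF2 (the CUL3 ligase, other degradation factors, SQSTM1, BACH and small MAF proteins and NRF2 relatives), 14 were tested, 0 were called, 1 had an unadjusted p under 0.05 and 0 had the order of SRXN1. With the block by the numbers of the authors' table, 2 of the 14 were called lower, beside 30.1% of all tested probes. They were CUL3, the ligase scaffold that works with KEAP1 (difference -0.34, adjusted p = 0.0294 with the block and 0.141 without), and SQSTM1. SQSTM1, the autophagy receptor that sequesters KEAP1, differed by -0.28 (adjusted p = 0.0442 and 0.710). With the block numbered as in the scanner files, the adjusted p was 0.309 for CUL3 and 0.776 for SQSTM1. Of 14 antioxidant enzymes not chosen as NRF2 targets, such as superoxide dismutases and catalase, 0 were called (2 at an unadjusted p under 0.05) and 1, PRDX4, had the order, with a median within-group standard deviation of 0.15. Of 9 genes of the ATF4 amino acid stress response, which also induces SLC7A11, 1 was called higher and 0 had the order. With the block, 2 of these 9 were called higher and 1 lower. Of the 14 antioxidant enzymes, the block called 2 higher and 0 lower. The share of all tested probes called with this block was 30.1%. Genes named in these lists other than FTL and SESN2 were chosen after their values were seen.

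**Figure D4:**
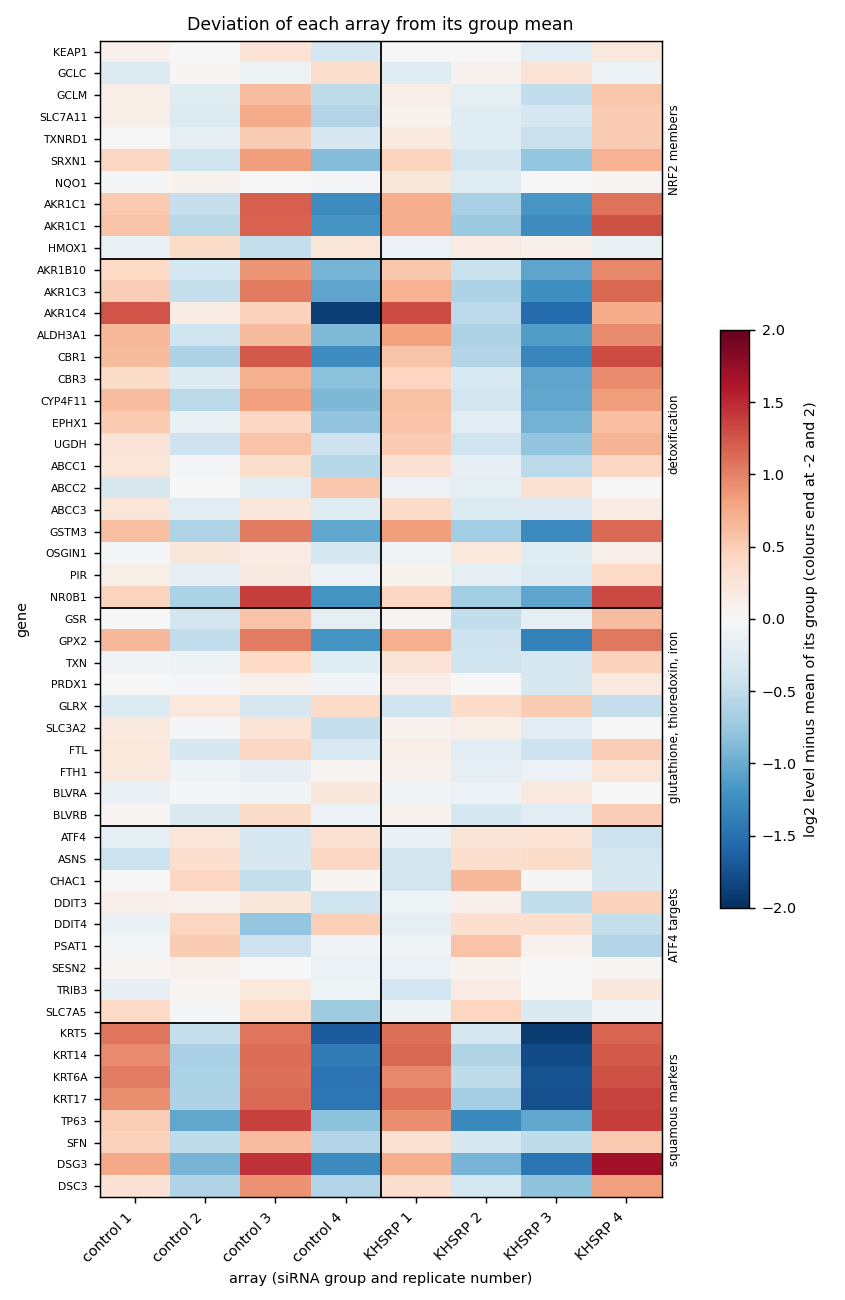
Deviation of the log2 level on each array (columns) from the mean of its siRNA group, for the tested probes of the NRF2 pathway genes and of related lists (rows), with red above and blue below the group mean. The exact order of arrays of SRXN1 and AKR1C1 recurs in 9 of 16 detoxification genes, 5 of 8 squamous markers and 0 of 9 ATF4 targets. SRXN1 and AKR1C1 were highest on control replicates 3 and 1 and KHSRP siRNA replicates 4 and 1. So were some genes outside that exact order, such as KRT5, TP63 and DSC3 among the squamous markers.

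The squamous identity of KYSE850 was looked at with 8 markers, all of them well above background and tested, and 0 called (0 at an unadjusted p under 0.05). Mean control log2 levels were 4.77 for KRT5, 4.46 for KRT14, 5.64 for KRT6A, 4.42 for KRT17 and 7.61 for SFN. They were lower for DSG3 (0.24, and -0.49 with KHSRP siRNA), DSC3 (-0.68 and -0.20) and TP63 (-1.74 and -1.93). The TP63 means were near those of COL1A1, a fibroblast marker (-1.86 and -1.80). KRT14, a basal keratin of squamous epithelium, was named after its values were seen and had a log2 level of 5.40, 3.81, 5.58 and 3.05 with control siRNA and 5.48, 3.73, 2.54 and 5.56 with KHSRP siRNA. The order of SRXN1 was shared by 5 of the 8 markers, and their median within-group standard deviation was 1.34. With the block by the numbers of the authors' table, 1 marker was called higher and 1 lower, beside 30.1% of all tested probes. Of 9 markers of leukocytes, endothelium, fibroblasts and hepatocytes, 7 had no probe well above background on all 4 arrays of a group and were not tested. PECAM1, VWF, COL3A1 and ALB passed that criterion on 0 of 8 arrays, a CD3E probe on 2 control and 3 KHSRP siRNA arrays, a PTPRC probe on 2 and 2, and an APOA1 probe on 1 and 1. CD68, a lysosomal protein of macrophages, was at 1.52, 0.53, 1.78 and -0.43 with control siRNA and 1.85, 0.81, -0.18 and 2.10 with KHSRP siRNA, in the order of SRXN1. COL1A1 ran from -2.45 to -1.40 and from -2.52 to -1.14. The part of cell state or of other cells in the shared order was not tested, and in bulk RNA fewer cells of a type and less RNA per cell cannot be told apart.

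FTL was lower with KHSRP siRNA, and was the gene of these NRF2 target lists whose brightest probe was called without a block. It encodes the light chain of ferritin, the iron store, and is induced by NRF2. At A_23_P50504 the log2 level of FTL was 7.04, 6.52, 7.25 and 6.53 on control replicates 1 to 4 and 5.36, 4.995, 4.81 and 5.71 on KHSRP siRNA replicates 1 to 4. All KHSRP siRNA values lay below all controls. The difference was -1.62 (SE 0.25, 95% interval -2.18 to -1.06, adjusted p = 0.00856 with limma), or 3.07-fold lower, and it was -1.60 on slide 1 and -1.63 on slide 2. A second probe, A_32_P155247, gave -1.57 (adjusted p = 0.0108), and another, A_19_P00812340, gave -0.99 with overlapping groups (adjusted p = 0.352). FTL was called without any 1 array, but not with the block numbered as in the scanner files (adjusted p = 0.0807). FTL has many processed pseudogenes, so the source of the signal is uncertain between copies. FTH1, the heavy chain, given as its partner after the values were seen, had a difference of 0.12 (95% interval -0.20 to 0.44, adjusted p = 0.735).

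**Figure D5:**
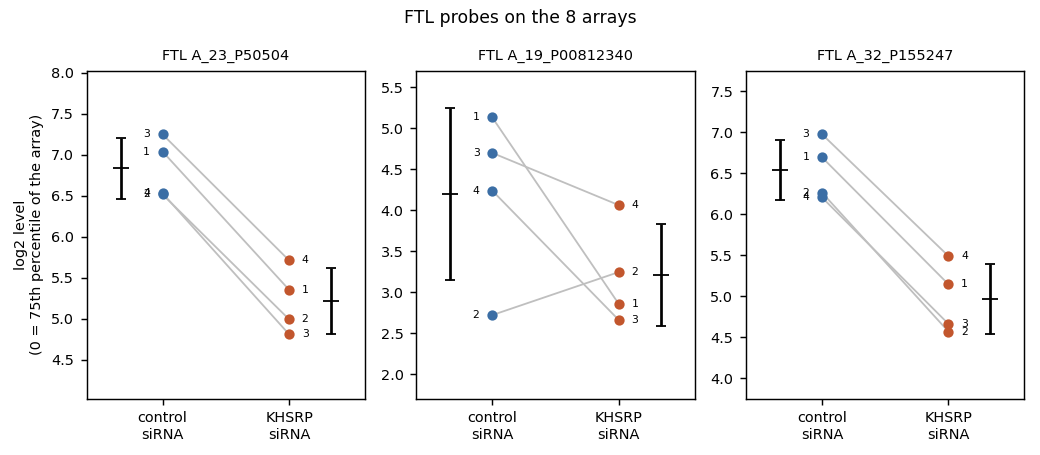
Log2 level of the 3 FTL probes (0 is the 75th percentile of the array) on the 4 control siRNA and 4 KHSRP siRNA arrays, with mean ± SD (n = 4), replicate numbers at the points and grey lines as in the plot of the pathway genes. The groups are apart at A_23_P50504 and A_32_P155247 (3.07-fold and 2.97-fold lower with KHSRP siRNA) and overlap at A_19_P00812340.

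SESN2 was the ATF4 target called higher without a block. It encodes sestrin 2, a leucine sensor that restrains mTORC1 and promotes the breakdown of KEAP1. At A_23_P35082 its log2 level was -0.42, -0.37, -0.46 and -0.57 with control siRNA and 0.32, 0.52, 0.44 and 0.49 with KHSRP siRNA. The control and KHSRP siRNA arrays did not overlap, and the difference of 0.90 (SE 0.10, 1.86-fold higher) had an adjusted p of 0.00293 with limma, but 0.0535 with the block numbered as in the scanner files. ATF4 itself, given after its values were seen, differed by 0.01 (95% interval -0.47 to 0.50, adjusted p = 0.986).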

How the data were processed

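KYSE850 mRNA was profiled on 8 one-colour arrays, grouped by their labels. The authors extracted spots with Agilent Feature Extraction (11.5.1.1 per the file headers, 12.6 per the labels), and the deposited scanner values are linear intensity, background-subtracted and detrended. The authors also deposited log2 values made with GeneSpring, centred per probe on a value that is not stated, with column medians from -0.25 to 0.22, used as an alternative. Their columns for KHSRP siRNA replicates 3 and 4 are exchanged against the scanner files, whose numbers are used here.

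Spots other than controls and outliers were log2-transformed, averaged per probe and set relative to the 75th percentile of their array. Probes with at least 0.5 of their spots well above background on all 4 arrays of a group were tested with limma 3.58.1 in R 4.3.3, without a block, with Benjamini-Hochberg adjustment over 18761 probes, and called at an adjusted p under 0.05. RefSeq accessions named 27241 of 42405 probes (64.2%). The brightest tested probe stood for a gene of the lists. Other steps used Python 3.11.15. The fit was also run on simulated levels with independent noise for each probe and array. Deviations shared between arrays, as seen here, were not simulated, so that run does not show how the fit behaves with them.

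Same-numbered arrays deviated together with the numbers of the authors' table (r = 0.52, 0.43, 0.83 and 0.84). With those of the scanner files r was 0.52, 0.43, -0.67 and -0.64. The former numbers were used to join arrays in the plots and in the pair differences. That choice rests on these same data. No label states that arrays were paired, and which numbering is right is not known. Named are the 10 genes, KHSRP, up to 3 called genes per other list, and other-cell markers above background. Another list, which enters the summed counts, is not reported here. The genes and lists were chosen with earlier results of these data known. The number of arrays limits the precision. Alternatives covered scaling, background correction, the filter, blocks, array weights, variance model, the methods' t-test, the authors' table, the mean over probes and leaving out each array.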

Additional observations from a re-analysis of the deposited data

Results flagged for a closer look

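Of 60 groups of 4 arrays (every tested probe of the genes given with values, in each siRNA group), 4 had an array whose gap to the next value, as a share of the range of its group, passed Dixon's critical value, which chance does in about 1 of 20 groups. At a second KHSRP probe, A_24_P134235, control replicate 2 was low (log2 level -1.86, next -1.10, share 0.832). At CUL3 A_33_P3321150, control replicate 4 was high (4.59, next 4.45, share 0.876) and KHSRP siRNA replicate 4 was low (3.89, next 4.18, share 0.861). At ABCC3 A_33_P3298024, control replicate 3 was high (1.76, next 1.44, share 0.867). None of the 10 probes of the pathway genes and none of the FTL and SESN2 probes was among them.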

How the results depend on the processing

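Under 22 alternatives KHSRP stayed called and lower, and FTL (-1.78 to -1.39) and SESN2 (0.58 to 0.94) kept their directions. Both lost their call with the replicate block by scanner file numbers (adjusted p = 0.0807 and 0.0535). None of the 10 pathway probes was called in 21 alternatives, and 1, SLC7A11, was called with the replicate block by the numbers of the authors' table (-0.33, adjusted p = 0.0459). Other NRF2 list genes called, 1 in the main comparison, numbered 13 with that block, 0 with the block by scanner file numbers and 1 to 2 without 1 array. The reported lists in this count held 14, 16 and 10 tested genes, and the list not reported here adds to them. Beside the 13, the block by the authors' numbers called 30.1% of all tested probes. Over all tested probes the replicate block by the authors' numbers called 2781 higher and 2863 lower, and the block by scanner file numbers 30 and 126. Calls higher numbered 98 with median scaling, 235 with normexp and 86 without the filter on dim probes, which left 233 lower. Leaving out 1 array at a time gave 135 to 239 higher and 354 to 548 lower. The methods' t-test had 3710 probes at an unadjusted p under 0.05 and called 379 higher and 702 lower, with 0 of the 10 pathway probes in either count. The causes of these shifts were not tested.

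The small differences of the pathway genes had no settled direction, apart from SLC7A11, which was negative throughout (-0.53 to -0.08). KEAP1 turned to 0.012 with the 75th percentile of detected probes and 0.022 with quantile normalization. TXNRD1 and HMOX1 turned to -0.0031 and -0.0027 with array weights, -0.059 and -0.069 with median scaling, and -0.026 and -0.032 with normexp. Leaving out 1 array gave -0.13 to 0.084 for KEAP1, -0.15 to 0.053 for GCLC, -0.087 to 0.30 for GCLM, -0.15 to 0.18 for TXNRD1, -0.50 to 0.067 for SRXN1, -0.11 to 0.040 for NQO1, -0.47 to 0.36 and -0.56 to 0.29 for the AKR1C1 probes, and -0.15 to 0.13 for HMOX1. NFE2L2 could not be measured above background, and no alternative moved the median of all probes by over 0.1 log2 units.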

Other observations

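ABCC3, an organic anion exporter and NRF2 target, gave opposite values at its probes, which were looked at after the values were seen. The array design assigns these probes to different RefSeq transcripts, and whether that relates to the opposite values was not tested. At probe A_23_P207507, which had the higher mean over the 8 arrays and the lower mean over the controls (1.18 against 1.503), the log2 level was 1.42, 0.96, 1.41 and 0.94 with control siRNA and 2.14, 1.49, 1.51 and 1.91 with KHSRP siRNA, a difference of 0.58 (adjusted p = 0.139 with limma, 0.0042 with the block by the numbers of the authors' table). At A_33_P3298024 it was 1.42, 1.39, 1.76 and 1.44 with control siRNA and 0.75, 0.41, 0.68 and 0.67 with KHSRP siRNA, a difference of -0.88 (adjusted p = 0.0082, 0.0032 with the block). With the block numbered as in the scanner files, neither ABCC3 probe was called (adjusted p = 0.201 and 0.0649). The groups did not overlap at either probe, as for 14.8% of all tested probes. ABCC2, a related exporter, was at 1.16, 1.47, 1.27 and 2.02 with control siRNA and 2.11, 2.04, 2.54 and 2.23 with KHSRP siRNA, also without overlap. Its difference of 0.75 missed the threshold without the block (adjusted p = 0.0745) and passed it with the block by the authors' numbers (0.0063). That block called 30.1% of all tested probes. With the block numbered as in the scanner files the adjusted p of ABCC2 was 0.174. By brightest probe, the groups did not overlap for 2 of the 16 tested detoxification genes, beside 14.8% of all tested probes.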
